A study of Mus musculus with 4 samples.

Results

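Chemokine ligands were followed in activated mouse CD8+ T cells, the T lymphocytes that kill infected and tumour cells, as 10 genes among the 49490 of the deposited table. The members are a list of gene names, and the rule behind it sets no threshold on their values, though the list was drawn up with earlier results of these data known. Ccl3, Ccl4, Ccl5 and Xcl1 are chemokines that T cells make, Cxcl9 and Cxcl10 are induced by interferons, Ccl22 is best known from dendritic cells, Ccl7 and Ccl24 from monocytes and macrophages, and Pf4 from platelets. The study asked which genes the transcription factor IRF8 regulates. It compared 2 libraries labelled Irf8 knockout, given as Irf8-/- in the design text, with 2 libraries labelled WT, given there as Irf8 fl/fl, that is, with a floxed but otherwise unaltered Irf8 allele by name. All 4 libraries came from CD8+ T cells of spleens and lymph nodes activated in culture. The sources used here do not give the age or strain of the mice, the activating agents or the driver of the deletion. The labels do not tell whether the 2 libraries of a group were separate mice or cultures, and every p-value therefore reflects the spread among these 4 libraries alone, which may be technical.

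Chemokines are small secreted proteins that guide migrating cells through G protein-coupled receptors, and they are sorted into families by the spacing of their first cysteines (C, CC, CXC and CX3C). Activated CD8+ T cells release CC chemokines and the C chemokine XCL1 together with their cytotoxic granules and cytokines, and thereby draw in T cells, monocytes and dendritic cells. Cells exposed to interferon gamma release CXCL9 and CXCL10, which attract T cells that carry CXCR3. Many chemokine genes stand next to each other on the chromosomes as clusters of duplicated genes.

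The libraries held 59091255 and 59489280 recovered reads under the knockout label and 58899365 and 59724952 under the WT label, and 1 read was worth 0.973 to 1.02 normalized counts, so a normalized count is close to a read. Irf8 had 89508 and 90222 normalized counts in the libraries labelled knockout and 6364 and 6081 in the libraries labelled WT, which is the opposite of what a knockout label would lead to. The groups are named by their labels throughout, and a positive log2 fold change means higher in the libraries labelled knockout. The labelled cell type was checked against 8 T cell markers, among them Cd3d and Cd3e of the T cell receptor complex. Their summed normalized counts were 264571 and 271384 in the libraries labelled knockout and 422224 and 418893 in the libraries labelled WT, so 63.7% of the WT-labelled level was present, and all 8 were lower. The 8 plasmacytoid dendritic cell markers, which include Siglech and Tcf4, summed to 242454 and 241524 in the libraries labelled knockout and to 9980 and 9547 in the libraries labelled WT. The 8 conventional dendritic cell markers, which include Zbtb46 and Flt3, summed to 38867 and 39108 under the knockout label and 14833 and 14380 under the WT label. Itgax made up most of the sums under the WT label, with 12573 and 12236 normalized counts there and 13736 and 13503 under the knockout label. The 5 B cell markers (Cd79a among them), 5 neutrophil markers (S100a8 and S100a9) and 4 NK cell markers (Ncr1 and Klrb1c) were at 438%, 1989% and 71.5% of the WT-labelled sum. Cd79b set the B cell sum, with 1112 and 1113 normalized counts in the libraries labelled knockout and 138 and 134 in the libraries labelled WT, while the other 4 B cell markers were not called. Klrd1 (20465 and 19648 under the knockout label, 27229 and 27093 under the WT label) and Eomes made up most of the NK cell sum. Ncr1 had at most 28.6 normalized counts in any library and was not called. S100a8 made up most of the neutrophil sum, and Ly6g had at most 6.13 in any library. The libraries thus held RNA of markers of other cells beside T cell RNA, and in bulk RNA a smaller number of cells of a type and less RNA per cell cannot be told apart.

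**Figure D1:**
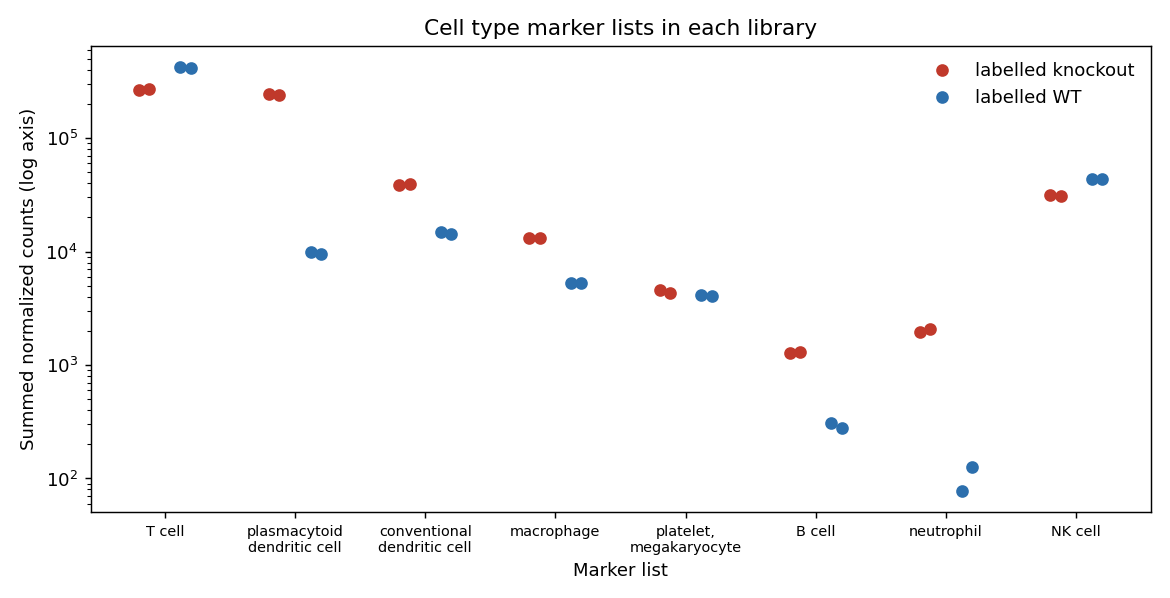
Summed normalized counts (log axis) of 8 cell type marker lists, with 1 point per library, for 2 libraries labelled knockout (red) and 2 labelled WT (blue). T cell markers were at 63.7% of the WT-labelled level in the libraries labelled knockout, plasmacytoid dendritic cell markers were 24.8-fold higher there, and the platelet and megakaryocyte list was at 109% of the WT-labelled level.

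The 10 ligands covered a wide range of levels. In the libraries labelled knockout they took together 1.13% and 1.12% of all reads, against 1.76% and 2.03% in the libraries labelled WT. Ccl5 alone made up 91.2% and 91.0% of those chemokine reads under the knockout label and 94.1% and 94.8% under the WT label. The 6 ligands outside the T cell group together made up at most 0.567% of the chemokine reads in any library. Per length, in reads per kilobase of exon and 1e6 reads (RPKM), Ccl5 stood at 10699 ± 60.8 in the libraries labelled knockout and at 18677 ± 1973 in the libraries labelled WT (SD, n = 2 each). In both groups Ccl4, Ccl3 and Xcl1 followed in that order, and the values of neighbours among these 4 did not overlap. Below them the order differed between the groups: Ccl22 came next in the libraries labelled knockout, at 16.3 ± 0.164 RPKM, but was above Cxcl9 alone in the libraries labelled WT, at 1.89 ± 0.121 RPKM (SD, n = 2 each). Pf4 came next after Xcl1 in the libraries labelled WT, at 14.8 ± 0.328 RPKM (SD, n = 2). Pf4 and Ccl7 could not be separated in the libraries labelled knockout, nor could Cxcl9 and Ccl24 there, since their values overlapped.

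All 10 ligands had at least 10 normalized counts in each of the 4 libraries and were tested. By limma, with a Benjamini-Hochberg adjusted p under 0.05 over all 18378 genes tested, 2 of the 10 were higher in the libraries labelled knockout and 7 were lower, where 33.4% of all genes tested were called, 19.9% as higher and 13.4% as lower. Ccl22 and Cxcl9 were the 2 higher ones, and Ccl4 was not called. For each of the 10, the 2 groups were separated without overlap, which was so for 68.8% of all genes tested. The median log2 fold change of the 10 was -0.57, beside 0.02 over all genes tested. All 10 had an adjusted p under 0.05 in the authors' deposited table, where 25.6% of genes with an adjusted p did. For single genes no exact permutation test is given, since the smallest two-sided p that 2 libraries per group allow is 0.33. Without knockout-labelled replicate 1 the median log2 fold change of the 10 was -0.61, beside 0.03 over all genes tested. Without replicate 2 it was -0.54, beside 0.02. Fewer of the 10, and fewer of all genes tested, were called in either case.

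**Figure D2:**
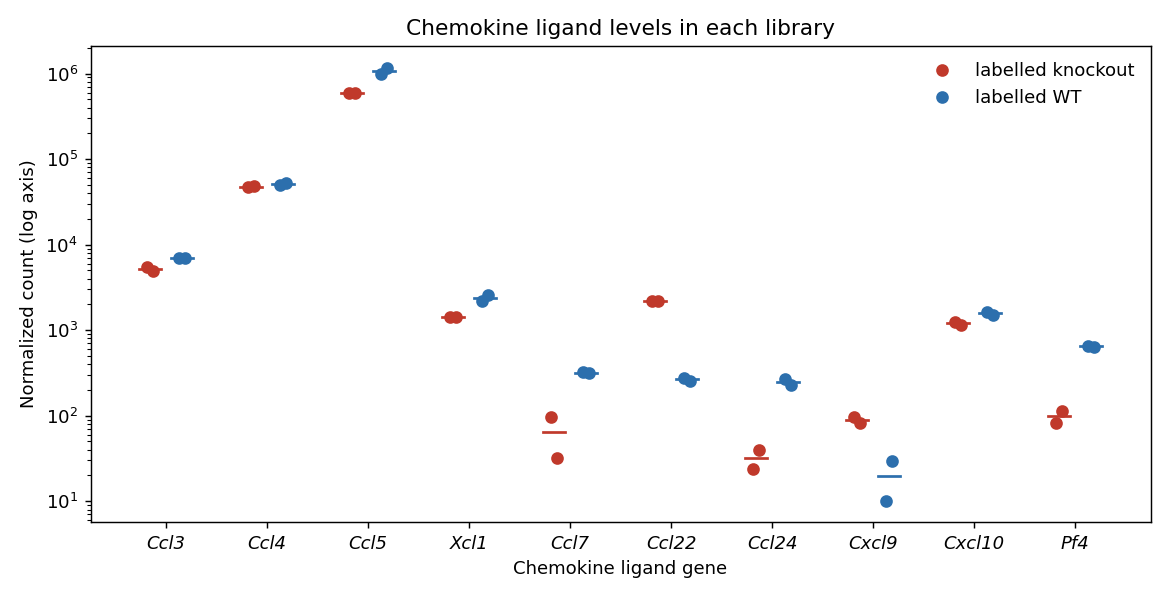
Normalized counts (log axis) of the 10 chemokine ligands, with 1 point per library and a bar at each group mean, for 2 libraries labelled knockout (red) and 2 labelled WT (blue). Ccl22 and Cxcl9 lie higher in the libraries labelled knockout, and the groups do not overlap for any ligand.

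Of the chemokines of T cells, Ccl5 and Xcl1 had the larger decreases. Ccl5, or RANTES, a chemokine that marks effector and memory CD8+ T cells, is encoded on chromosome 11 (83525778 to 83530518, minus strand, mm10, ENSMUSG00000035042.2). It had 597079 and 592361 normalized counts in the libraries labelled knockout and 994474 and 1175211 in the libraries labelled WT. Every value under the knockout label was lower than both under the WT label, where the libraries also lay further apart. Ccl5 was at 54.8% of the WT-labelled mean, by limma a log2 fold change of -0.86 ± 0.09 (standard error) with an adjusted p of 0.00426. It held 1.03% (95% Wilson interval 1.029% to 1.034%) and 1.02% (1.020% to 1.026%) of all reads in the libraries labelled knockout, against 1.66% (1.656% to 1.662%) and 1.93% (1.923% to 1.930%) in the libraries labelled WT. The counting error is thus far smaller than the gap between the libraries labelled WT.

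Xcl1, or lymphotactin, the C chemokine that attracts XCR1-bearing conventional dendritic cells, lies on chromosome 1 (164931644 to 164935527, minus strand, ENSMUSG00000026573.7). It had 1421 and 1420 normalized counts in the libraries labelled knockout and 2188 and 2544 in the libraries labelled WT. The knockout-labelled libraries were nearly equal and were at 60.0% of the WT-labelled mean, or by limma a log2 fold change of -0.73 ± 0.09 (standard error) with an adjusted p of 0.00123. This call was lost without either knockout-labelled library, where the fold change was -0.73 in both cases and the limma adjusted p was 0.0546 without replicate 1 and 0.0578 without replicate 2. The annotated gene Gm20743 overlaps Xcl1 on the opposite strand and had 99.0 and 64.2 normalized counts under the knockout label and 73.3 and 100.1 under the WT label. The sources used here do not say whether counting used strand, so reads of the overlap cannot be assigned with certainty.

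Ccl3 and Ccl4, the macrophage inflammatory proteins 1 alpha and 1 beta, attract T cells and myeloid cells and lie side by side on chromosome 11 in opposite orientation. Ccl3 (83647844 to 83649355, minus strand, ENSMUSG00000000982.5) had 5415 and 4952 normalized counts in the libraries labelled knockout and 6899 and 6897 in the libraries labelled WT. It was lower under the knockout label, at 75.1% of the WT-labelled mean, by limma a log2 fold change of -0.41 ± 0.05 (standard error) with an adjusted p of 0.00196, a sign that turned to 0.24 when the libraries were scaled to the summed T cell markers. Ccl4 (83662584 to 83664683, plus strand, ENSMUSG00000018930.3) had 47132 and 48364 normalized counts in the libraries labelled knockout and 50272 and 52203 in the libraries labelled WT. That was 93.2% of the WT-labelled mean, or by limma a log2 fold change of -0.10 ± 0.03 (standard error) with an adjusted p of 0.0524. Ccl4 was past the threshold in the authors' deposited table (adjusted p 0.0384) and by edgeR on the recovered reads (adjusted p 0.0376), and by limma with a minimum of 50 (adjusted p 0.0405), with a pseudocount of 10 (adjusted p 0.0434) or without WT-labelled replicate 1 (adjusted p 0.0101), so its call hangs on the tool, the filter, the pseudocount, the scaling and 1 library. Its smallest limma adjusted p, 2.00e-05, came from scaling to the summed T cell markers, where the sign turned to 0.55. In the other alternatives that kept all 4 libraries Ccl4 was lower. Their adjusted p ran from 1.44e-04 (limma with median centring) to 0.0838 (limma with a replicate block). The members of this group thus ran from 54.8% to 93.2% of the WT-labelled level, beside 63.7% for the summed T cell markers.

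Measured against T cell RNA, the 4 chemokines of T cells separated into a pair that was higher and a pair that was not called. Per 1000 normalized counts of the summed T cell markers, Ccl4 had 178.1 and 178.2 in the libraries labelled knockout and 119 and 125 in the libraries labelled WT. On the same scale Ccl3 had 20.5 and 18.2 in the libraries labelled knockout and 16.3 and 16.5 in the libraries labelled WT. Ccl5 had 2257 and 2183 under the knockout label and 2355 and 2806 under the WT label, and Xcl1 had 5.37 and 5.23 under the knockout label and 5.18 and 6.07 under the WT label, where the groups overlapped. With each library scaled to the summed markers, the limma log2 fold changes were 0.55 for Ccl4 (adjusted p 2.00e-05), 0.24 for Ccl3 (adjusted p 0.0137), -0.21 for Ccl5 (adjusted p 0.103) and -0.08 for Xcl1 (adjusted p 0.454). This scaling moved the median of all genes tested to 0.66 and called 69.1% of them, 68.6% as higher and 0.511% as lower. The log2 fold changes of Ccl4, Ccl3, Ccl5 and Xcl1 on this scale thus all lay below the median of all genes tested. Over the 10 ligands it called 5 higher (Ccl3, Ccl4, Ccl22, Cxcl9 and Cxcl10) and 3 lower (Ccl7, Ccl24 and Pf4).

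**Figure D3:**
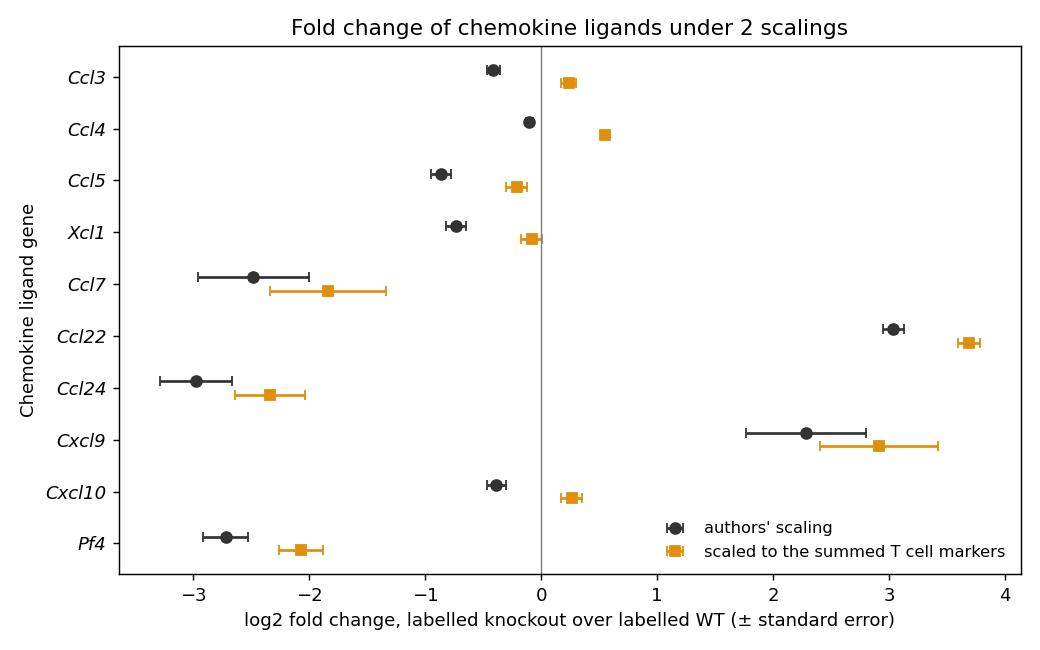
Log2 fold change of each chemokine ligand, libraries labelled knockout over libraries labelled WT (n = 2 each), with bars for the standard error, under the authors' scaling (black circles) and with each library scaled to the summed T cell markers (orange squares). Ccl3, Ccl4 and Cxcl10 lie below 0 under the authors' scaling and above 0 under the other, while the signs of the other 7 do not change between the scalings.

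The ligands best known from macrophages and platelets had the largest decreases among the 10. Ccl24, or eotaxin 2, a CCR3 ligand that attracts eosinophils, lies on chromosome 5 (135569937 to 135573049, minus strand, ENSMUSG00000004814.10). It had 23.5 and 39.9 normalized counts in the libraries labelled knockout and 270 and 229 in the libraries labelled WT, so 12.7% of the WT-labelled mean was present (log2 fold change -2.98, standard error 0.31, limma adjusted p 6.98e-04). Pf4, or CXCL4, a chemokine of platelet granules that mouse macrophages also make, lies on chromosome 5 (90772435 to 90773383, plus strand, ENSMUSG00000029373.7). It had 82.3 and 115 normalized counts in the libraries labelled knockout and 650 and 641 in the libraries labelled WT. Pf4 was thus at 15.3% of the WT-labelled mean, by limma a log2 fold change of -2.72 ± 0.19 (standard error) with an adjusted p of 1.39e-04.

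Ccl7, or MCP-3, a monocyte attractant that binds CCR2, lies on chromosome 11 (82045712 to 82047525, plus strand, ENSMUSG00000035373.2). It had 97.0 and 32.1 normalized counts in the libraries labelled knockout and 323 and 312 in the libraries labelled WT. The libraries labelled WT were close to each other, while those labelled knockout rest on 99 and 33 reads and lay further apart, both below the WT-labelled values. By limma the log2 fold change was -2.48 ± 0.48 (standard error) with an adjusted p of 0.00934. It was -3.27 without knockout-labelled replicate 1 and -1.70 without knockout-labelled replicate 2, so the direction held while 1 library set the size.

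Most listed markers of macrophages, but not all, moved with these 3 ligands. Of 9 macrophage markers tested, 6 were lower, 1 was higher and 2 were not called. Of all genes tested, 13.4% were lower and 19.9% higher. C1qa and C1qb, subunits of complement C1q, had log2 fold changes of -1.38 and -1.53. Adgre1, which encodes F4/80, had 165 and 195 normalized counts in the libraries labelled knockout and 204 and 110 in the libraries labelled WT. Csf1r had 695 and 813 under the knockout label and 797 and 685 under the WT label. Neither Adgre1 nor Csf1r was called. The list summed to 13184 and 13072 in the libraries labelled knockout and to 5264 and 5329 in the libraries labelled WT, because Cd68, a lysosomal protein also found in dendritic cells, rose to 11390 and 10918, against 1687 and 1947. Without Cd68, left out after its value was seen, the list summed to 1793 and 2154 under the knockout label and 3576 and 3382 under the WT label, or 56.7% of the WT-labelled level. Arg1, the arginase of alternatively activated macrophages, had 133 and 110 in the libraries labelled knockout and 756 and 717 in the libraries labelled WT. The part of macrophage RNA in these ligands was not tested.

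Most listed markers of platelets, though not Itga2b and Itgb3, were low in all 4 libraries. Gp1ba had 18.6 and 26.3 normalized counts in the libraries labelled knockout and 19.3 and 18.4 in the libraries labelled WT. Gp5 had 7.84 and 14.6 under the knockout label and 9.16 and 15.3 under the WT label, and neither gene was called. Gp9 had 11.8 and 3.89 normalized counts in the libraries labelled knockout and 8.14 and 0 in the libraries labelled WT, and Gp6 had at most 4.87 in any library. Itga2b, which encodes integrin alpha IIb, had 74.5 and 105 in the libraries labelled knockout and 47.8 and 22.5 in the libraries labelled WT, the opposite direction to Pf4, while Ppbp, a platelet chemokine of the same list, had 5.88 and 0 under the knockout label and 13.2 and 25.5 under the WT label and was not called. The list of 8 summed to 4566 and 4336 under the knockout label and 4103 and 4048 under the WT label, most of it Itgb3, an integrin subunit of many cell types. Of the 5 tested, Itga2b passed the limma threshold (adjusted p 0.0469).

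Ccl22, or macrophage-derived chemokine, a CCR4 ligand that dendritic cells make and that attracts regulatory T cells, had the largest increase among the 10. The gene lies on chromosome 8 (94745590 to 94751699, plus strand, ENSMUSG00000031779.3). It had 2172 and 2204 normalized counts in the libraries labelled knockout and 276 and 256 in the libraries labelled WT. The libraries of each group were close together, and the mean was 8.22-fold higher under the knockout label (2188 ± 22.2 and 266 ± 13.8, SD, n = 2 each), by limma a log2 fold change of 3.04 ± 0.09 (standard error) with an adjusted p of 3.72e-06. Most of the conventional dendritic cell markers moved with it: 7 of 8 were higher by limma, where 19.9% of all genes tested were. Fscn1, an actin-bundling protein of mature dendritic cells, had 10351 and 10638 in the libraries labelled knockout and 961 and 897 in the libraries labelled WT. Zbtb46, a transcription factor of conventional dendritic cells, had 978 and 844 under the knockout label and 207 and 143 under the WT label. Itgax, another listed marker of conventional dendritic cells, was higher by only 0.13 on the log2 scale, and Xcr1, at 0.02, was not called. The plasmacytoid list moved too, with 8 of 8 higher beside the same 19.9% of all genes. The part of either cell type in the Ccl22 reads was not tested.

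Cxcl9 and Cxcl10, the CXCR3 ligands that interferon gamma induces, are neighbours that moved in opposite directions under the authors' scaling, and both were higher with scaling to the summed T cell markers. Cxcl9 (chromosome 5, 92321347 to 92328079, minus strand, ENSMUSG00000029417.9) had 97.0 and 81.8 normalized counts in the libraries labelled knockout and 10.2 and 29.6 in the libraries labelled WT, which rest on 10 and 29 reads. It was 4.49-fold higher by the means, by limma a log2 fold change of 2.28 ± 0.51 (standard error) with an adjusted p of 0.0170. The limma adjusted p was 0.184 without knockout-labelled replicate 1 and 0.160 without replicate 2, and the log2 fold change was 1.56 without WT-labelled replicate 1 and 3.01 without WT-labelled replicate 2.

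Cxcl10 (chromosome 5, 92346638 to 92348889, minus strand, ENSMUSG00000034855.13) had 1243 and 1158 normalized counts in the libraries labelled knockout and 1644 and 1501 in the libraries labelled WT. It was lower, at 76.4% of the WT-labelled mean (log2 fold change -0.39, standard error 0.08, limma adjusted p 0.0141), a sign that turned to 0.26 when the libraries were scaled to the summed T cell markers. The limma adjusted p was 0.0911 without knockout-labelled replicate 1 and 0.141 without replicate 2. Cxcl10 remained far more abundant than Cxcl9 in both groups, at 9.21 against 0.512 RPKM in the libraries labelled knockout and 11.6 against 0.109 RPKM in the libraries labelled WT. The annotated gene Art3 overlaps Cxcl10 on the opposite strand and had at most 15.7 normalized counts in any library. Cxcl11, the other CXCR3 ligand, had 9.80 and 1.95 normalized counts in the libraries labelled knockout and 0 in both libraries labelled WT, and was not tested.

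The 250 bases before the RefSeq starts of these neighbours are shown because the genes share an inducer and had different fold changes. The part of these bases in the fold changes was not tested. Capitals mark matches, on either strand, to the letters of an interferon-stimulated response element (GAAANNGAAA), an ETS-IRF composite element (GGAANNGAAA), a gamma-activated site (TTCNNNGAA), a kappaB site (GGGANNNNCC) or an AP-1 site (TGANTCA). The sequences are RefSeq's on GRCm38.p6, minus strand, chr5:92328080-92328329 for Cxcl9 and chr5:92348890-92349139 for Cxcl10, each read 5′ to 3′ toward the gene.
Cxcl9: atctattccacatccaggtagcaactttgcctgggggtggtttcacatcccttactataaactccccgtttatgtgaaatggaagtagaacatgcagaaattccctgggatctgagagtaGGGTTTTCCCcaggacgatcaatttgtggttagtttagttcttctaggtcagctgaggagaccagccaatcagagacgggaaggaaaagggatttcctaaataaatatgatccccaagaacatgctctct
Cxcl10: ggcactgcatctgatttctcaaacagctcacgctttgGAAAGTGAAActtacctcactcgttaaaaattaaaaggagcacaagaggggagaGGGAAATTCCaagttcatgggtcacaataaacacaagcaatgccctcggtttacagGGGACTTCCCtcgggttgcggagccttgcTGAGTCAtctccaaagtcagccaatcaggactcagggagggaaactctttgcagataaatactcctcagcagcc
The Cxcl10 window held the interferon-stimulated response element letters 213 to 204 bases before the start, kappaB letters 159 to 150 and 103 to 94 bases before it, and AP-1 letters 74 to 68 bases before it. The Cxcl9 window held kappaB letters on the opposite strand 130 to 121 bases before the start. Only exact matches to the letters were marked, so an element with other letters would be missed. Of 32851 RefSeq promoter windows of this length, 2.98% held the response element letters, 2.30% the composite element, 7.02% the gamma-activated site, 17.6% the kappaB letters and 6.75% the AP-1 letters. The table had windows for 6 of the 10 ligands. Among the other 4 of these, Ccl22 held kappaB letters 131 to 122 bases before the start on the opposite strand, and Ccl3, Xcl1 and Pf4 held none of the 5 sets of letters in this window. Ccl4, Ccl5, Ccl7 and Ccl24 have no entry.

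Most of the ligands sit in clusters of chemokine genes, and their neighbours were read beside them. The stretch around Ccl22 on chromosome 8 holds Cx3cl1 and Ccl17 within 64.9 kb. Ccl17, or TARC, the other CCR4 ligand, had 271 and 280 normalized counts in the libraries labelled knockout and 58.0 and 63.3 in the libraries labelled WT. Cx3cl1, or fractalkine, the membrane-bound ligand of CX3CR1, had 95.04 and 146 in the libraries labelled knockout and 15.3 and 10.2 in the libraries labelled WT. All 3 were higher, with log2 fold changes of 3.04 for Ccl22, 3.14 for Cx3cl1 (limma adjusted p 0.00136) and 2.17 for Ccl17 (limma adjusted p 3.31e-04). Of 4 other genes tested with a start within 100 kb of that of Ccl22, 1 was higher and 1 lower, with a median of 0.08.

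On chromosome 11 Ccl9 and Ccl6, CC chemokines of mouse myeloid cells, lie between Ccl5 and Ccl3. Ccl6 had 1317 and 1252 normalized counts in the libraries labelled knockout and 2346 and 2398 in the libraries labelled WT, and Ccl9 had 1020 and 806 under the knockout label and 1492 and 1464 under the WT label. Their log2 fold changes were -0.88 (limma adjusted p 1.73e-04) and -0.70 (limma adjusted p 0.00589), beside -0.86 for Ccl5, -0.41 for Ccl3 and -0.10 for Ccl4. In the other cluster of that chromosome, Ccl2, or MCP-1, the monocyte attractant next to Ccl7, had 78.4 and 113 in the libraries labelled knockout and 292 and 329 in the libraries labelled WT. Its log2 fold change was -1.71 (limma adjusted p 0.00199), while Ccl12, Ccl8 and Ccl1 further along were not called, at -1.06, -0.25 and -0.23. Ccl11, within the same cluster, had 0 reads in every library.

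Around Pf4 on chromosome 5, Cxcl3, a neutrophil attractant, had 39.2 and 33.1 normalized counts in the libraries labelled knockout and 75.3 and 83.7 in the libraries labelled WT (log2 fold change -1.12, limma adjusted p 0.0244). Ppbp, the other platelet chemokine of the cluster, had 5.88 and 0 in the libraries labelled knockout and 13.2 and 25.5 in the libraries labelled WT and was not called (limma adjusted p 0.0949). Cxcl2, the most abundant of the neutrophil attractants listed, had 1006 and 1076 under the knockout label and 1118 and 1195 under the WT label and was not called either, nor was Cxcl1, with a log2 fold change of 0.63. Members of a cluster thus did not share a single fold change.

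**Figure D4:**
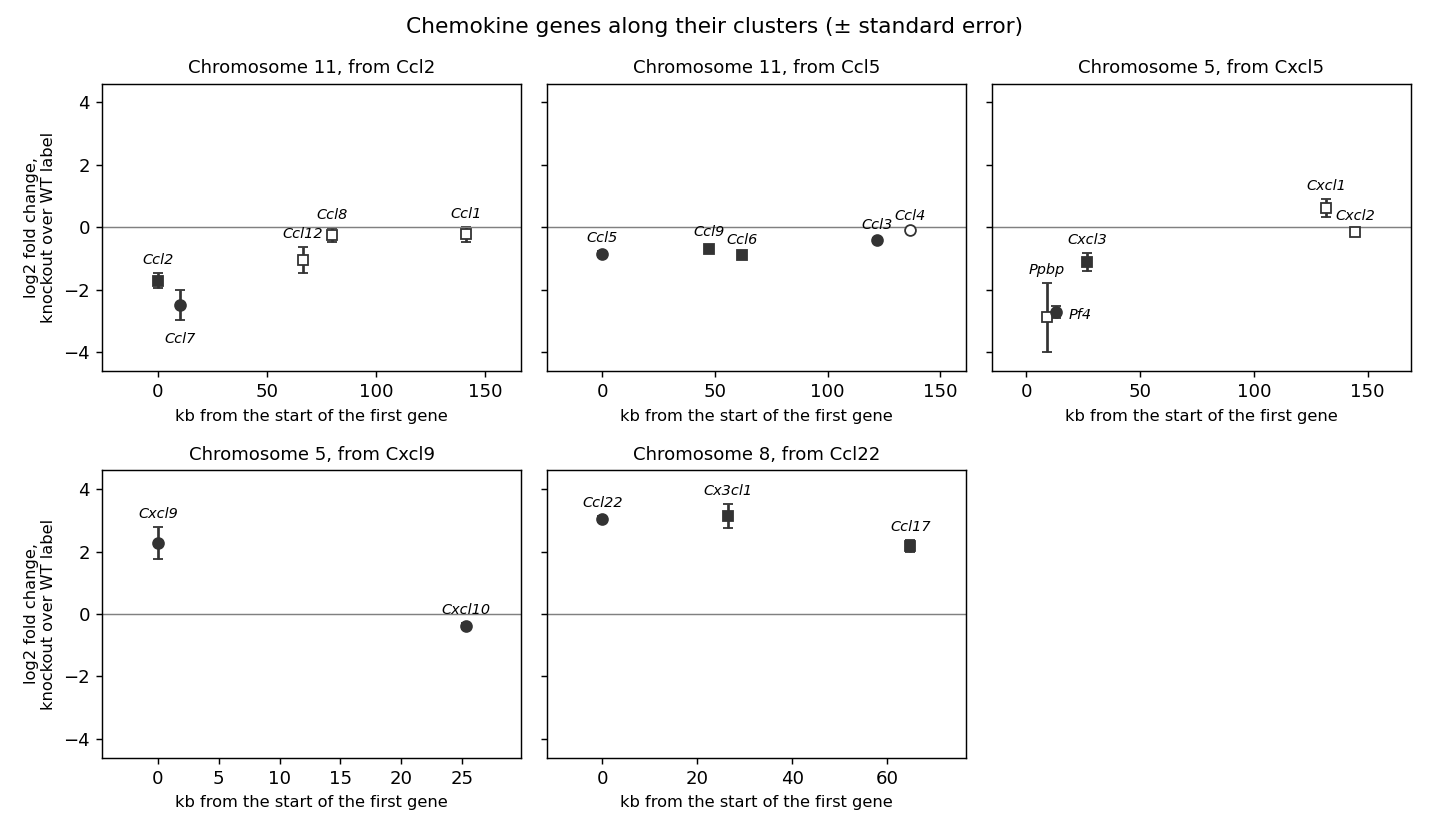
Log2 fold change, libraries labelled knockout over libraries labelled WT (n = 2 each), of the tested chemokine genes along 5 clusters, against distance in kb from the start of the first chemokine gene of the cluster; circles are the 10 ligands, squares other chemokine genes, filled symbols passed the limma threshold, and bars are standard errors. Ccl22, Cx3cl1 and Ccl17 lie between 2.17 and 3.14, while Cxcl9 and Cxcl10, at 2.28 and -0.39, lie on opposite sides of 0 under the authors' scaling plotted here, though both were above 0 when scaled to the summed T cell markers.

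Of the 27 other chemokine ligands listed, 15 were tested, 6 had 0 reads in every library and 6 were under the filter on low values. Of the 15, 3 were higher (Cxcl16, Ccl17 and Cx3cl1), 4 were lower (Ccl6, Ccl2, Ccl9 and Cxcl3) and 8 were not called, beside 19.9% of all genes tested higher and 13.4% lower, with a median log2 fold change of -0.23 beside 0.02 over all genes. Without knockout-labelled replicate 2 fewer of these ligands were called lower, as were fewer of all genes tested. Cxcl16, the ligand of CXCR6, had 1537 and 1403 normalized counts in the libraries labelled knockout and 334 and 287 in the libraries labelled WT, with a log2 fold change of 2.24 and a limma adjusted p of 3.50e-05. The ligands of lymphoid stroma and epithelium, Ccl19, Ccl21a and Ccl20, had 0 reads in every library, as had Ccl11, Cxcl5 and Cxcl15.

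Of the 9 receptors that the 10 ligands bind, 8 were tested, of which 3 were higher and 4 lower, beside 19.9% and 13.4% of all genes tested, with a median log2 fold change of -0.07. Cxcr3, the receptor of CXCL9 and CXCL10, had 17756 and 17359 normalized counts in the libraries labelled knockout and 26416 and 25735 in the libraries labelled WT (log2 fold change -0.57, limma adjusted p 5.58e-05). Ccr2, the receptor of CCL7, was lower by 0.44 on the log2 scale (limma adjusted p 3.15e-04). Ccr3, the receptor of CCL24, was lower too, with 399 and 360 under the knockout label and 518 and 576 under the WT label (limma adjusted p 0.0203). Ccr1, which binds CCL3 and CCL5, had 439 and 499 in the libraries labelled knockout and 240 and 211 in the libraries labelled WT, and Ccr4, the receptor of CCL22, had 242 and 224 under the knockout label and 143 and 102 under the WT label. Their log2 fold changes were 1.05 and 0.94 (limma adjusted p 0.00240 and 0.0193). Xcr1, the receptor of XCL1, had 640 and 542 under the knockout label and 534 and 631 under the WT label and was not called. Ackr1, an atypical receptor that binds chemokines without signalling, had 28.4 and 31.1 normalized counts in the libraries labelled knockout and 0 reads in both libraries labelled WT, at least 9.74-fold higher with a floor of 3 reads per library. With either knockout-labelled library left out, fewer receptors were called in each direction, as were fewer of all genes tested. Scaled to the summed T cell markers, 6 receptors were called higher, beside 68.6% of all genes tested, and 0 lower, also 0 at an unadjusted p under 0.05 by limma, beside 0.511% of all genes.

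Genes that carry the signals known to induce chemokines were mixed in direction. Of 13 interferon signalling genes, 7 were higher and 5 lower, where 19.9% of all genes tested were called higher and 13.4% lower, with a median log2 fold change of 0.32. Ifng, the inducer of Cxcl9 and Cxcl10, had 10476 and 9543 normalized counts in the libraries labelled knockout and 16057 and 17060 in the libraries labelled WT. Stat2 was higher by 1.32, Ifnar2, a type I interferon receptor chain, by 0.85, and Ifngr1, a chain of the interferon gamma receptor, was lower by 0.56 on the log2 scale, as was the kinase gene Jak1 by 0.47 (limma adjusted p 1.56e-05, 1.69e-05, 4.43e-05 and 7.01e-05 in that order). Ifngr2, the other chain of the interferon gamma receptor, had 2030 and 1992 normalized counts in the libraries labelled knockout and 235 and 342 in the libraries labelled WT, with a log2 fold change of 2.82 (limma adjusted p 7.47e-05).

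Of 12 genes of NF-kappaB signalling, 5 were higher and 4 lower, beside the same 19.9% and 13.4% of all genes, with a median of 0.12. Ikbkb, a kinase of the pathway, and Rel, a subunit, were higher by 0.47 and 0.55 on the log2 scale, and Tnfaip3 and Nfkbia, inhibitors that the pathway induces, were lower by 0.49 and 0.29 (limma adjusted p 4.22e-04, 0.00140, 8.42e-05 and 4.07e-04 in that order). With either knockout-labelled library left out, fewer of the 12 were called higher, as were fewer of all genes tested. Of 7 tested genes of the IL-4 and STAT6 pathway, which induces Ccl22 and Ccl24 in myeloid cells, 3 were higher and 3 lower, beside 19.9% and 13.4% of all genes, and Il4 and Il13 were under the filter on low values. Il13ra1, an IL-13 receptor chain, had 473 and 569 normalized counts in the libraries labelled knockout and 35.6 and 68.4 in the libraries labelled WT, Il4ra was higher by 0.30 on the log2 scale, and Arg1 had a log2 fold change of -2.59 (limma adjusted p 4.69e-04, 0.00204 and 5.97e-05). Without knockout-labelled replicate 1, fewer genes of this pathway were called higher, as were fewer of all genes tested. With the libraries scaled to the summed T cell markers, 12 genes of the interferon list and 12 of the NF-kappaB list were called higher, where 68.6% of all genes tested were, and 0 of either lower, also 0 at an unadjusted p under 0.05 by limma, where 0.511% of all genes were called lower.

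Profiles most like those of 3 ligands were looked up over the 4 libraries, by the Euclidean distance between log2(normalized count + 1) values centred on each gene's mean, among genes with a mean of at least 100. Nearest to Ccl5 were Prkcz, at a distance of 0.0662, and Dnajc15, at 0.0769. Nearest to Ccl22 were H2-DMa, a chaperone of class II antigen presentation, at 0.0302, and Unc93b1, a trafficking partner of endosomal Toll-like receptors, at 0.0319. Nearest to Ccl24 were a T cell receptor variable segment, Trav15-1-dv6-1, at 0.612, and Ctse, the protease cathepsin E, at 0.650. With 4 libraries in 2 groups, this measure compares little besides the size of the group difference.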

How the data were processed

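Polyadenylated RNA of 4 libraries was sequenced. The submitters' processing notes name the build mm10 and the tools StringTie 2.1.4, HISAT2 2.2.1, Trim Galore 0.4.4 and DESeq2. Settings, annotation and strand use: not given in the sources used here. Per the file headers and values, the authors deposited normalized counts, a signal obtained by dividing counts by a size factor per library. Every value was a whole multiple of 1 step within 0.01 reads (100% of values), so the reads were recovered. The authors' deposited table also holds a log2 fold change and its standard error, a Wald score, a p-value and an adjusted p-value, in the direction of WT over knockout.

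The test was limma 3.58.1 (trend, robust variance) on log2(normalized count + 1), over 18378 genes with at least 10 in at least 2 libraries. Two-sided p-values were adjusted over the whole table by Benjamini-Hochberg, and 0.05 was the threshold. With the pseudocount, the change of low genes is understated. Groups were taken from the titles. Intervals cover counting error only. Coordinates and exon lengths came from GENCODE M21 (GRCm38, the assembly of mm10) by exact symbol, for 133 of 133 listed genes. Alternatives used edgeR 4.0.16, DESeq2 1.42.0 and limma-voom on the recovered reads, other filters, pseudocounts, scalings, a replicate block, and leaving out each library. The scripts' tests were tried on simulated counts.

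The members and the gene lists were chosen with earlier results of these data known. Beyond the members, the genes named are those with the smallest adjusted p in each list, up to 2 in each direction, the first 2 of each marker list, list members of the highest level, Irf8, and the 2 nearest profiles of Ccl5, Ccl22 and Ccl24. Further genes, at 0 or next to a member on the chromosome or singled out in a list, were named after their values were seen. The results of some genes taken by the rule are left out here.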

Additional observations from a re-analysis of the deposited data

How the results depend on the processing

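Ccl7, Ccl22, Ccl24 and Pf4 kept their direction and their call under all 15 alternatives, with log2 fold changes of -3.27 to -1.70, 2.74 to 3.68, -3.35 to -2.34 and -3.02 to -2.07. Scaling to the summed T cell markers turned the sign of Ccl3 (0.24), Ccl4 (0.55) and Cxcl10 (0.26) and ended the calls of Ccl5 (-0.21) and Xcl1 (-0.082). It gave 5 ligands higher and 3 lower, and 12608 genes higher and 94 lower of all tested. Under it, 7 other ligands were higher and 2 lower, 6 receptors higher and 0 lower, 12 interferon genes higher and 0 lower, 12 NF-kappaB genes higher and 0 lower, and 5 IL-4 and STAT6 genes higher and 1 lower. Median centring gave 2389 genes higher and 7210 lower, a share of 24.9% higher among calls beside 59.7% under the authors' scaling, with a median of all genes of -0.28. Under it 7 other ligands were lower and 3 NF-kappaB genes higher. Ccl4 was called lower with a minimum of 50 or a pseudocount of 10 (both -0.10), with median centring (-0.40), and by edgeR, DESeq2 and limma-voom (each -0.11).

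Leaving out each library gave 1309 to 4137 genes higher and 630 to 2759 lower, 1 to 2 ligands higher and 5 to 8 lower. The log2 fold changes were -0.13 to -0.074 for Ccl4, -0.84 to -0.62 for Xcl1, 1.56 to 3.01 for Cxcl9 and -0.45 to -0.32 for Cxcl10. Among other ligands 2 to 4 were higher and 2 to 5 lower, among receptors 0 to 3 and 2 to 4, among NF-kappaB genes 2 to 6 and 3 to 4, and among IL-4 and STAT6 genes 1 to 3 and 2 to 4. A group reduced to 1 library was assumed to vary like the other. With a replicate block, 2 ligands were higher and 7 lower, and 3415 genes were higher and 2168 lower, so it changed no call of a ligand. Deviations of same-numbered libraries from their group means correlated at 0.017 across 18378 genes, which does not pair them. The cause of the changes named here was not tested. Cxcl9 rests on 10 and 29 reads in the libraries labelled WT, where depth limits the size of its fold.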
